A study of Homo sapiens with 6 samples.

Results

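The caspases and the apoptosome were examined in HK-2 cells, an immortalized human proximal tubular line, after knockdown of INO80, the catalytic subunit of a chromatin remodeling complex. The 8 genes were found by their symbols in the deposited gene table, and each matched 1 of its 57905 genes. They are CYCS, APAF1, CASP9, CASP8, CASP2, CASP6, XIAP and DIABLO. In 3 libraries the cells had received an INO80-directed siRNA pool, in the other 3 a pool without a target (control siRNA), and all cells were harvested after 48 h. Neither group held untransfected cells, the labels give a single cell line for all of them, and nothing says that the libraries of a group came from separate cultures, so the p-values measure the spread between these libraries, which may be technical. The study asked which genes lie downstream of INO80 and whether its loss bears on apoptosis of tubular cells.

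Caspases are proteases that cut their substrates after aspartate and are made as inactive precursors. In the mitochondrial pathway, cytochrome c leaves the mitochondrion and binds APAF1, which assembles into a wheel-shaped platform, the apoptosome, and recruits the initiator caspase 9. Caspase 9 then cuts executioner caspases, whose activity is what dismantles the cell. XIAP blocks caspase 9 and some of the executioners until DIABLO, also released from mitochondria, displaces it. Most of this control acts on the proteins, by cleavage, release and binding, and an mRNA level does not report it. In the kidney, apoptosis of proximal tubular cells is a known feature of obstruction, ischemia and toxic injury.

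Between 16829273 and 20311588 reads were counted on genes in the control siRNA libraries, and between 20678008 and 23784599 in the INO80 siRNA libraries. Levels are given in CPM, the count relative to the TMM-scaled library size, for comparisons between libraries, and in FPKM, which also divides by exonic length, for comparisons between genes. Where 3 values are given for a group, they stand in the order of replicates 1, 2 and 3. INO80 itself, the check of the labels, was at 46.3, 49.3 and 54.0 CPM with control siRNA and at 13.8, 12.0 and 14.2 CPM after knockdown (log2 fold change -1.90, edgeR adjusted p = 0.000161). The libraries of replicate 1 stood apart from the others in both groups. Over the 15343 genes tested, their deviations from the group mean had correlations between -0.447 and -0.394 with those of other numbers in the opposite group, against 0.639 with each other. Deviations from a group mean cancel out within the group, so the positive value and the negative ones are not independent. Of the markers of the proximal tubule, LRP2, the endocytic receptor megalin, had at most 1 count in any library. CUBN, AQP1, SLC34A1 and ANPEP were under the filter on low counts, while GGT1 (39.1 FPKM over all libraries) and DPP4 (25.0 FPKM) were expressed. Defining markers of endothelium (CDH5, VWF and KDR) summed to at most 0.02 FPKM in any library. Those of leukocytes (PTPRC, CD3E, CD14 and LYZ) summed to between 0.06 and 0.1 FPKM under control siRNA and between 0.18 and 0.36 FPKM under INO80 siRNA, with PTPRC and CD3E listed at 0 FPKM and CD14 at no more than 16 counts. The markers of fibroblasts summed to between 5.02 and 9.69 FPKM under control siRNA and between 5.9 and 11.8 FPKM under INO80 siRNA, and no marker of any of these lists had an adjusted p under 0.05 with treatment alone. Most of the fibroblast sum came from COL1A1 (4.84 FPKM over all libraries) and DCN (2.44 FPKM), while COL1A2, PDGFRA and PDGFRB averaged at most 0.1 FPKM. DCN was at 4.95, 0.87 and 0.8 FPKM under control siRNA and at 5.73, 1.12 and 1.17 FPKM under INO80 siRNA, so that replicate 1 was the highest in both groups. The epithelial markers (KRT8, KRT18, EPCAM, CDH1 and CDH2) summed to between 240.8 and 258 FPKM under control siRNA and between 242 and 259 FPKM under INO80 siRNA. Of these, CDH1 was under the filter on low counts, at 0.04 FPKM over all libraries. KRT8 was at 89.8, CDH2 at 74.4, KRT18 at 44.0 and EPCAM at 41.2 FPKM. Of the tested markers (3 tubular, 4 epithelial and 3 fibroblast), 5 were called in the fit with the replicate number given further on. The share of all tested genes called there was 24.8%, and no test was made of the difference. The fibroblast markers COL1A1 and DCN were higher by 0.32 each on the log2 scale (adjusted p = 0.000102 and 0.00771, edgeR). Of the epithelial markers KRT18 was higher (log2 fold change 0.19, adjusted p = 0.00102) and EPCAM lower (-0.31, adjusted p = 3.71e-06, edgeR), and the tubular marker DPP4 was lower (-0.17, adjusted p = 0.0027, edgeR). The part of these markers in the results was not tested.

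None of the 8 genes passed the test in either direction under INO80 siRNA. The log2 fold changes lay between -0.12 and 0.06 with a median of -0.026, where the median over all tested genes was 0.0066, and the adjusted p-values lay between 0.534 and 0.949 (edgeR's quasi-likelihood test with Benjamini-Hochberg adjustment over all tested genes). All 8 genes passed the filter on low counts. An adjusted p under 0.05 was reached by 0 of 8 members, beside 1.75% of all tested genes. Unadjusted p was under 0.05 for 0 of 8 in edgeR, beside 16.4% of all tested genes, and for 0 of 8 in DESeq2, beside 13.6%. Levels of the 3 INO80 siRNA libraries overlapped those of the 3 control siRNA libraries for each member, while 22.8% of all tested genes had no such overlap.

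Libraries that share a number deviated together, so a model that also holds the replicate number (the replicate block) has a smaller error. With the block, 24.8% of all tested genes reached an adjusted p under 0.05, and still 0 of the 8 members did. The smallest adjusted p among them was then 0.191, for CASP6 (edgeR), and DESeq2 with the block also called 0 of 8, beside 15.7% of the genes to which it gave an adjusted p. Without both libraries of replicate 1, 0 of 8 members were called with the block, beside 25.4% of the genes tested there, and 0 of 8 without it, beside 3.37%. The intervals give the changes that these libraries do not exclude. Over the 8 genes, the 95% intervals of the fold change, each taken alone, reached from 0.80-fold for CASP6 to 1.23-fold for DIABLO with treatment alone.

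**Figure D1:**
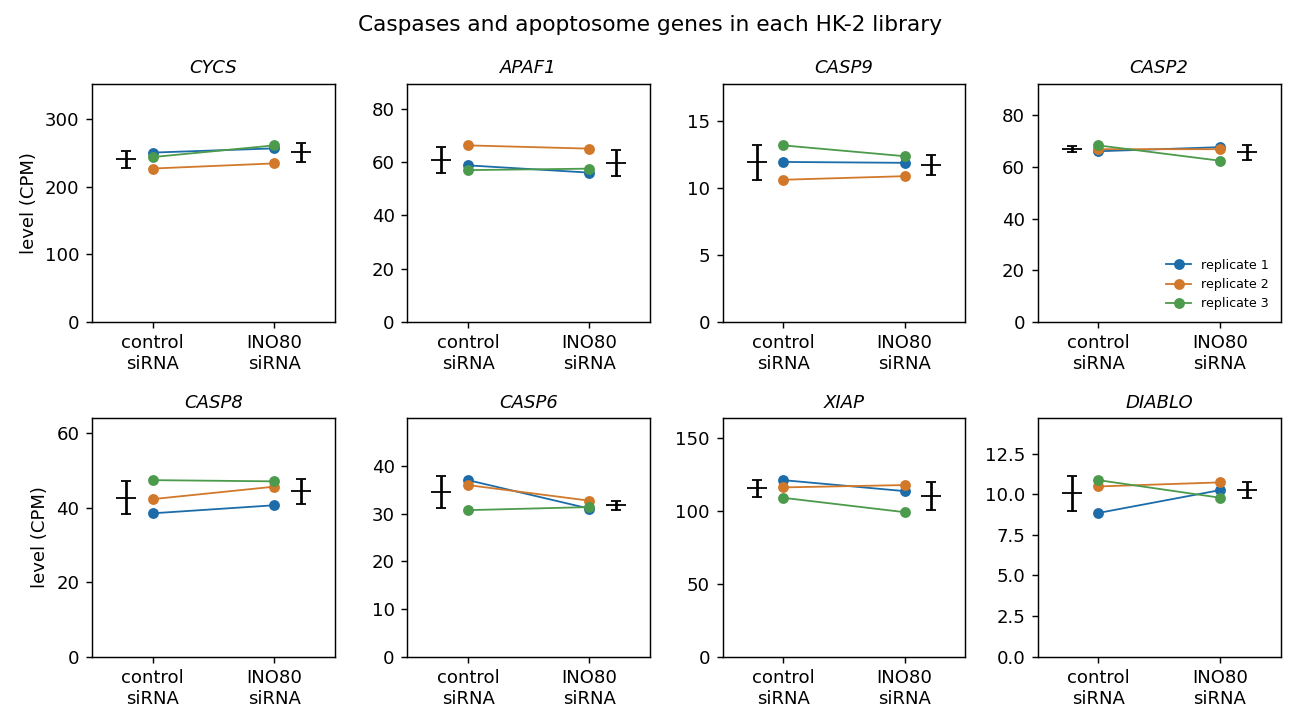
Level of each gene in CPM (vertical axes, from 0) in the 3 control siRNA and 3 INO80 siRNA libraries of HK-2 cells, with a line joining libraries of the same replicate number and black bars for the mean and SD of a group. The groups overlap in every panel, and for CASP8 and CASP9 the replicate numbers keep their order from left to right.

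Cytochrome c, the signal for assembly and otherwise an electron carrier of the respiratory chain, is encoded by CYCS (ENSG00000172115, chromosome 7, 25159710 to 25164980, minus strand, in GRCh37 coordinates, as all positions here). Its mRNA was at 251, 227 and 244 CPM with control siRNA and at 257, 235 and 261 CPM after knockdown. Replicate 2 was the lowest in both groups, and the ranges of the groups overlapped. The groups averaged 241 ± 12.2 and 251 ± 14.3 CPM (mean ± SD over n = 3), and the log2 change was 0.06 (SE 0.066, edgeR adjusted p = 0.708). CYCS was the only member that moved in the same direction in all 3 replicate pairs, by 0.035, 0.047 and 0.099 on the log2 scale, and 52.7% of all tested genes kept 1 direction over the pairs. The human genome holds many processed copies of CYCS among which reads can be split. The table lists 39 such pseudogenes, of which 8 had any count, and their sum came to at most 0.582% of the CYCS count in a library.

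The scaffold of the apoptosome, APAF1 (ENSG00000120868, chromosome 12, 99038919 to 99129204, plus strand), was at 58.7, 66.2 and 57.0 CPM with control siRNA. After knockdown it was at 56.0, 65.0 and 57.5 CPM. Replicate 2 was the highest in both groups, at nearly the same level. The groups averaged 60.6 ± 4.92 and 59.5 ± 4.82 CPM (mean ± SD over n = 3), and the log2 change was -0.027 (SE 0.085, edgeR adjusted p = 0.912). The 95% interval of the fold change ran from 0.858 to 1.12.

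CASP9 (ENSG00000132906, chromosome 1, 15817327 to 15853029, minus strand) encodes the initiator that the apoptosome activates. It was counted with 196, 217 and 255 reads with control siRNA and with 239, 263 and 300 reads after knockdown. After scaling these were 12.0, 10.6 and 13.2 CPM under control siRNA and 11.9, 10.9 and 12.4 CPM under INO80 siRNA. The order of the replicate numbers was the same in both groups, with replicate 2 lowest and replicate 3 highest. The log2 change was -0.024 (SE 0.12, edgeR adjusted p = 0.949), and its interval in fold change, from 0.813 to 1.19, was among the widest of the 8 genes.

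CASP8 (ENSG00000064012, chromosome 2, 202098166 to 202152434, plus strand) encodes the initiator recruited to death receptors at the cell surface. Its level was 38.5, 42.3 and 47.4 CPM with control siRNA and 40.6, 45.6 and 47.1 CPM after knockdown. Replicate 1 was the lowest and replicate 3 the highest in both groups. The groups averaged 42.7 ± 4.46 and 44.4 ± 3.37 CPM (mean ± SD over n = 3), and the log2 change was 0.057 (SE 0.094, edgeR adjusted p = 0.822).

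CASP2 (ENSG00000106144, chromosome 7, 142985308 to 143004789, plus strand) encodes an initiator with its own activating platform, known for responses to failed division and extra centrosomes. It was the steadiest of the 8 genes under control siRNA, at 66.1, 66.9 and 68.4 CPM in replicates 1, 2 and 3. After knockdown it was at 67.7, 66.9 and 62.5 CPM, so that replicate 3 alone lay below the control libraries. The log2 change was -0.032 (SE 0.060, edgeR adjusted p = 0.846), and the interval of the fold change ran from 0.890 to 1.07.

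CASP6 (ENSG00000138794, chromosome 4, 110609785 to 110624739, minus strand) encodes an executioner known for cutting lamin A. Its level was 37.0, 36.0 and 30.7 CPM with control siRNA and 31.0, 32.7 and 31.4 CPM after knockdown. Control replicates 1 and 2 were above every INO80 siRNA library, and control replicate 3 was below them all. The groups averaged 34.6 ± 3.37 and 31.7 ± 0.886 CPM (SD, n = 3 each), and the log2 change of -0.12 (SE 0.087, edgeR adjusted p = 0.534) was the largest in size among the 8 genes. Of all tested genes, 47.3% had a smaller absolute change than CASP6, and 10.3% had a smaller one than CASP9, the member nearest to 0. All 8 members thus lay below the middle of the absolute changes, a scale on which no test was made. The comparison was not matched by level. The median level of all tested genes was 21.2 CPM, and all members but CASP9 and DIABLO were above it. The part of level in this was not tested.

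XIAP (ENSG00000101966, chromosome X, 122993574 to 123047829, plus strand) encodes the inhibitor that binds caspase 9 and some of the executioners. It was at 121, 116 and 109 CPM with control siRNA and at 113, 118 and 98.9 CPM after knockdown. Replicate 3 was the lowest in both groups. The groups averaged 115 ± 6.08 and 109.9 ± 9.74 CPM (mean ± SD over n = 3), and the log2 change was -0.067 (SE 0.078, edgeR adjusted p = 0.731).

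DIABLO (ENSG00000184047, chromosome 12, 122692210 to 122712081, minus strand), also called SMAC, encodes the mitochondrial protein that displaces XIAP from caspases. It had the fewest reads of the 8 genes, with 145, 214 and 210 counts with control siRNA and 206, 259 and 237 counts after knockdown. These corresponded to 8.84, 10.5 and 10.9 CPM and to 10.2, 10.7 and 9.78 CPM. The control library of replicate 1 was the lowest of all, and the 3 INO80 siRNA libraries lay between it and the highest control library. The log2 change was 0.025 (SE 0.12, edgeR adjusted p = 0.949). The level of DIABLO is uncertain, because 2 other genes overlap its span. RP11-512M8.5, on the same strand from 122692326 to 122750970, was listed at 0 counts in all 6 libraries, and B3GNT4, on the opposite strand from 122688090 to 122693499, had between 160 and 283 counts. Whether reads in shared exons were discarded, and whether strand was used in counting, is not given in the sources used here.

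**Figure D2:**
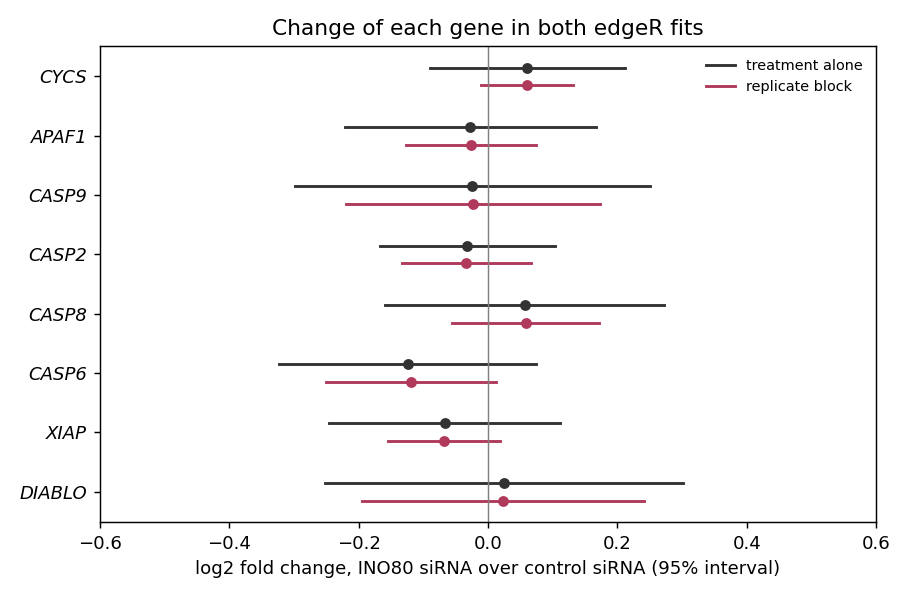
Log2 fold change of each gene (horizontal axis, INO80 siRNA over control siRNA) with its 95% interval, from edgeR with treatment alone (black) and with the replicate number as a block (red). Every interval crosses 0 in both fits, and those of the block are the narrower.

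Of the other members, CASP2, CASP6, CASP9, APAF1 and XIAP also share part of their span with another annotated gene. The largest count on such a neighbour was that of CCDC109B, on the opposite strand at the end of CASP6, with between 495 and 556 counts. For APAF1 the neighbour was ANKS1B on the opposite strand, with between 28 and 55 counts. The neighbours of CASP2, CASP9 and XIAP had at most 9, 1 and 2 counts in a library.

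The sum of squares of log2 CPM of each gene was split into a part between replicate numbers, a part between treatments and a remainder. With 3 numbers against 2 treatments, the replicate part tends to be the larger even where neither has an effect. Of this sum, the replicate number held 94.8% for APAF1, 92.9% for CASP9 and 87.9% for CASP8. It held 78.2% for CYCS, 74.0% for XIAP and 42.9% for DIABLO, with 54.6% left as remainder for DIABLO. For these 6 genes the treatment held between 0.982% (CASP9) and 18.1% (CYCS). For CASP6 the replicate number held 36.9% and the treatment 32.6%, and for CASP2 14.4% and 14.6%, with 71.1% left as remainder. Over all tested genes the medians were 48.3% for the replicate number and 21.5% for the treatment. What the replicate numbers stand for, such as a day or a passage, is not stated in the labels.

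The genes did not vary as a block over the libraries. Over the 28 pairs of members, Pearson's r of log2 CPM ran from -0.888, between APAF1 and CYCS, to 0.681, between CASP9 and CYCS, across 6 libraries that share 3 replicate numbers. The tested gene most like APAF1 over the libraries was ST6GALNAC3 (r = 0.999), the one most like CASP9 was RP4-607J23.2 (r = 0.993) and the one most like CYCS was AC008982.2 (r = 0.992). An r over 0.95 was reached by 28, 18 and 57 of the tested genes with APAF1, CASP9 and CYCS. Each most alike gene was picked as the highest of all tested genes over only 6 libraries. A high r can arise by chance in such a search, and no test was made of it.

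Per exonic length, the 8 genes were far from equal in mRNA. CYCS led the control siRNA libraries with 53.7 ± 2.15 FPKM, followed by CASP6 with 17.8 ± 1.55, XIAP with 12.7 ± 0.498, CASP2 with 8.33 ± 0.279, APAF1 with 7.64 ± 0.684 and CASP8 with 6.25 ± 0.745 FPKM (SD, n = 3 each). CASP9, with 2.25 ± 0.248 FPKM, and DIABLO, with 1.68 ± 0.21 FPKM, stood at the low end. CASP2 and APAF1 overlapped in their control libraries and were not separated, while the other neighbours in this order did not overlap. Under INO80 siRNA the order of the 8 genes by mean FPKM was the same, from 56.4 ± 3.12 FPKM for CYCS to 1.72 ± 0.0924 FPKM for DIABLO (SD, n = 3 each). There APAF1 (6.89, 8.36 and 7.41 FPKM) overlapped both CASP2 and CASP8 (5.8, 6.81 and 7.04 FPKM), so these were not separated. APAF1 mRNA stood at 3.44 ± 0.653 times that of CASP9 in FPKM under control siRNA and at 3.41 ± 0.496 times under INO80 siRNA. XIAP stood at 5.69 ± 0.797 times CASP9 under control siRNA and at 5.52 ± 0.815 times under INO80 siRNA (SD, n = 3 each). The exonic length counts every annotated exon of a gene, between 1936 bases for CASP6 and 9025 bases for XIAP, so that a gene with long exons that are seldom used is placed too low.

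**Figure D3:**
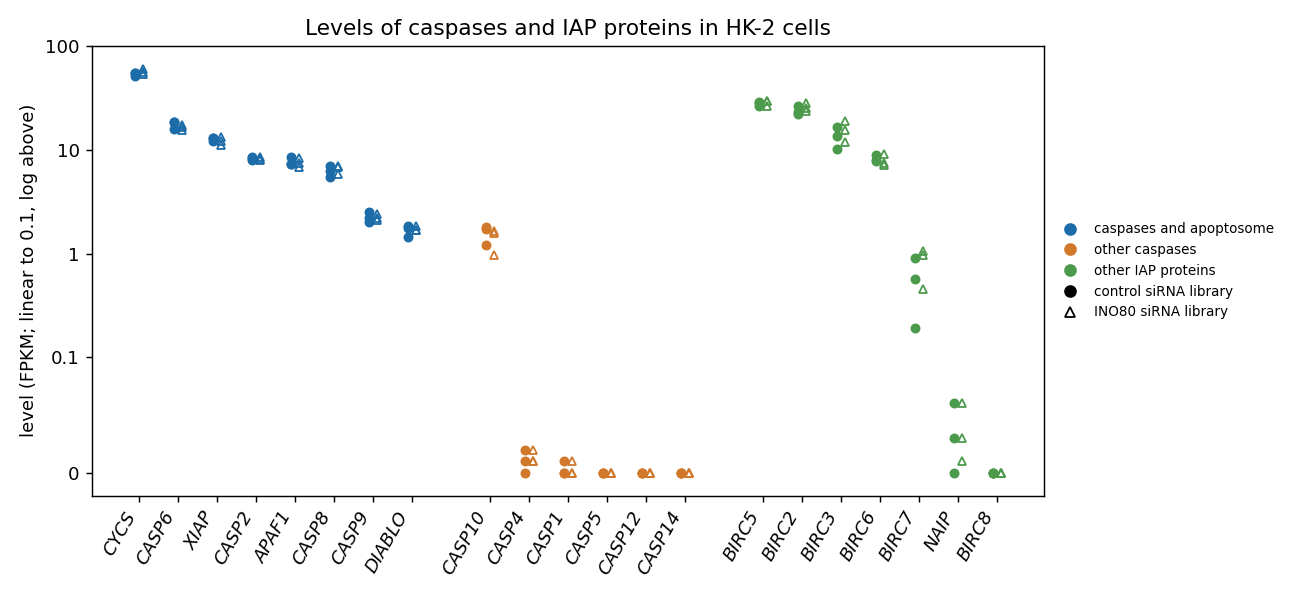
Level in FPKM (vertical axis, linear up to 0.1 and logarithmic above) of the 8 genes, of 6 other caspases and of the other IAP proteins in each control siRNA library (filled circles) and INO80 siRNA library (open triangles). CASP2, CASP6, CASP8, CASP9 and CASP10 lie at or above 0.96 FPKM, while CASP1, CASP4, CASP5, CASP12 and CASP14 lie at or near 0 in both groups.

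Of the other caspases examined, all but CASP10 were hardly detected. CASP10, the neighbour and relative of CASP8, was at 1.49 FPKM over all libraries (log2 fold change -0.19, adjusted p = 0.72, edgeR). CASP1 had at most 1 count and CASP4 at most 3 counts in a library, and CASP5, CASP12 and CASP14 had 0 counts in all 6, where a count of 0 allows up to 3 counts for counting error only. These 5 genes were under the filter, so no change could be tested in them.

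Around the 8 genes, 53 further genes of the pathway were listed by role, of which 43 could be tested. With treatment alone 0 of the 43 were called in edgeR, beside 1.75% of all tested genes, and 4 had an unadjusted p under 0.05, beside 16.4%. DESeq2 called 1 of them, TNFRSF10B, beside 5.03% of the genes to which it gave an adjusted p. With the replicate block 9 of 43 (20.9%) were called, 4 higher and 5 lower, beside 24.8% of all tested genes (11.4% higher and 13.4% lower). DESeq2 with the block called 5 of these 9 (TNFRSF10B, TNFSF10, BIRC3, PAK2 and PARP1), beside 15.7% of genes, and no other of the 43. The 43 had a median log2 fold change of 0.0097. No gene was called in either fit among the other caspases (1 tested, CASP10), the IAP antagonists and mitochondrial proteins (4 tested, with HCCS, the enzyme that attaches heme to cytochrome c, highest at 29.0 FPKM), the regulators of the apoptosome (6 tested, with the chaperone HSPA8 highest at 383 FPKM) or the platform of caspase 2 (2 tested, with PIDD at 2.21 FPKM).

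Of the 9 genes that edgeR called with the block, 5 were among the 11 tested genes of the death receptor pathway that leads to CASP8, beside 24.8% of all tested genes, and DESeq2 with the block called 2 of the 11. No test was made of this difference in share. TNFRSF10B, the TRAIL receptor DR5, was at 184, 174 and 176 CPM with control siRNA and at 236, 206 and 219 CPM after knockdown. The groups did not overlap, with a log2 fold change of 0.31 and an adjusted p of 0.0574 with treatment alone and 5.86e-07 with the replicate block (edgeR). The other TRAIL receptor that carries a death domain, TNFRSF10A, moved the other way, from 21.5, 22.8 and 22.6 CPM to 17.7, 19.7 and 19.1 CPM (log2 fold change -0.24, adjusted p = 0.194 with treatment alone and 0.0157 with the replicate block, edgeR). With the block its adjusted p was 0.0606 without replicate 2 and 0.0955 without replicate 3 (edgeR), and DESeq2 with the block gave 0.142. Their ligand TNFSF10, or TRAIL, was at 420, 213 and 209 CPM with control siRNA and at 296, 173 and 181 CPM after knockdown. Replicate 1 was the highest in both groups, and the log2 fold change had an adjusted p of 0.596 with treatment alone and of 8.85e-07 with the replicate block (edgeR). Without replicate 1 the blocked log2 fold change was -0.26 for TNFSF10 and 0.28 for TNFRSF10B, and both were called in each blocked fit that left out a pair. With no block both were called without the pair of replicate 1 (adjusted p = 0.0335 and 0.0312) but not without that of replicate 2 (0.779 and 0.38) or 3 (0.833 and 0.571, edgeR). CFLAR, which encodes an inhibitor of caspase 8 activation, had a log2 fold change of -0.11 and TNFRSF1A, a TNF receptor, 0.11 with the block (adjusted p = 0.0318 and 0.0429, edgeR). Both were chosen after their values were seen. Neither was called without replicate 2 (adjusted p = 0.278 and 0.15) or without replicate 3 (adjusted p = 0.235 and 0.232, edgeR), nor by DESeq2 with the block (adjusted p = 0.125 and 0.217).

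In the remaining lists the calls with the block were single genes or a pair. BAK1, whose product forms the pore through which cytochrome c leaves the mitochondrion, was at 44.5, 48.9 and 47.6 CPM with control siRNA and at 48.9, 56.8 and 55.3 CPM after knockdown (log2 fold change 0.19, adjusted p = 0.269 with treatment alone and 0.00732 with the replicate block, edgeR). BAX, BOK and BID, the other 3 genes of that list, were not called. The IAP gene BIRC3 had a log2 fold change of 0.19 with an adjusted p of 0.734 with treatment alone and 0.00113 with the replicate block (edgeR), while BIRC2, BIRC5, BIRC6 and BIRC7 were not called. Among 10 substrates of caspases, PAK2 and PARP1 were lower with the block, by -0.17 and -0.12 on the log2 scale (adjusted p = 0.000391 and 0.00888, edgeR), and DFFA, which restrains the DNase of apoptosis, was not called (adjusted p = 0.0735). In the blocked fit, BAK1 was not called without replicate 2 or 3 (adjusted p = 0.0834 and 0.0784), nor was PARP1 (adjusted p = 0.185 and 0.115, edgeR), while BIRC3 and PAK2 were called in each blocked fit that left out a pair. DESeq2 with the block did not call BAK1 (adjusted p = 0.0914).

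**Figure D4:**
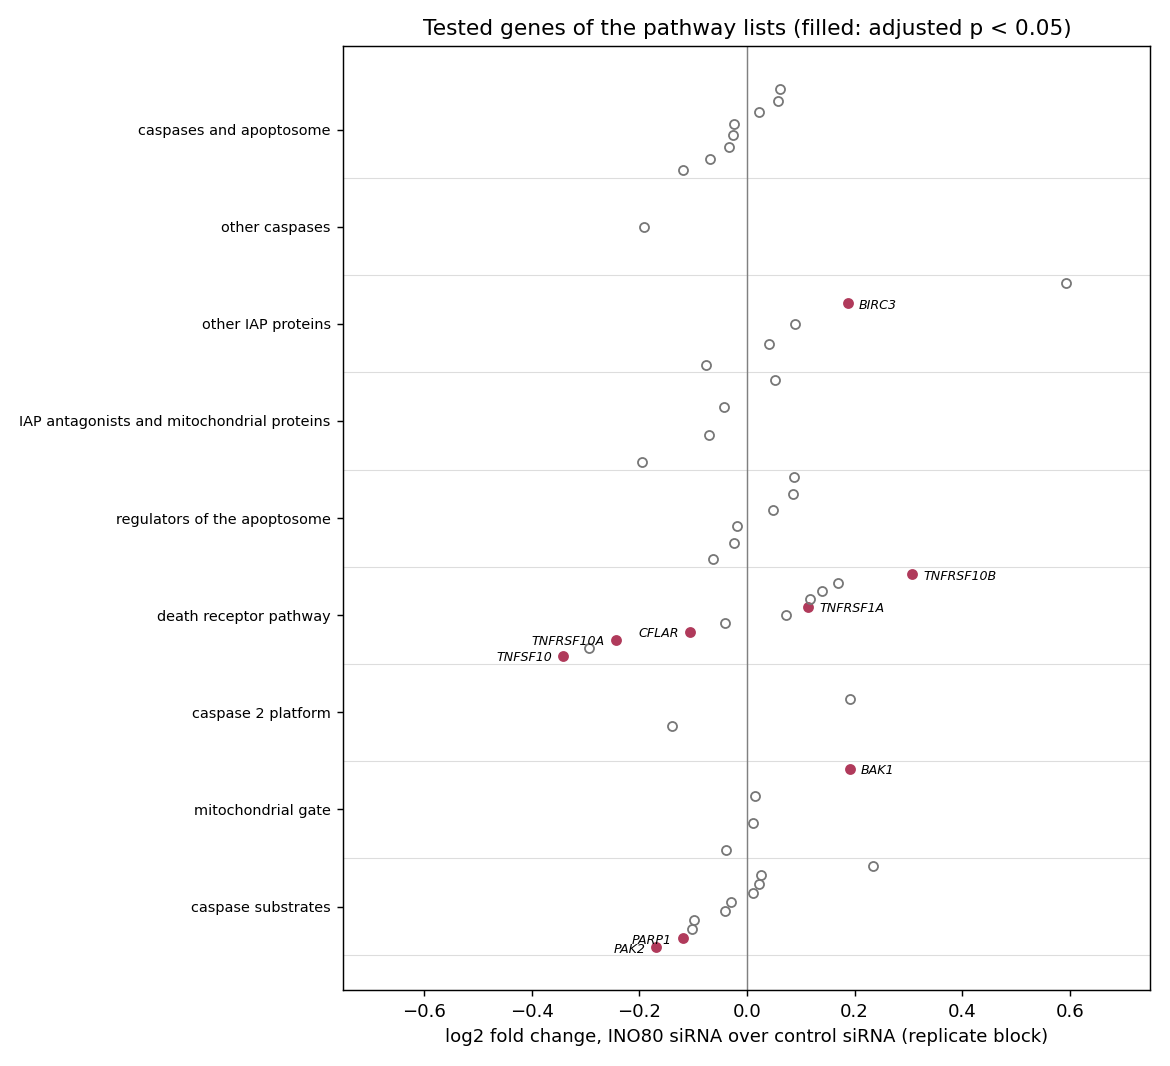
Log2 fold change with the replicate block (horizontal axis, INO80 siRNA over control siRNA) of every tested gene of the 9 lists, 1 point a gene, filled and named where the adjusted p was under 0.05. The 8 caspase and apoptosome genes lie between -0.12 and 0.061 with no filled point, and the filled points number 9 of the 43 others.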

How the data were processed

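The RNA-seq data were 6 libraries from HK-2 cells, 3 with control siRNA and 3 with INO80 siRNA. The authors deposited 1 table with raw counts and FPKM per gene. The deposited FPKM values divide the count by exonic length and library total. The submitters' processing notes name HISAT2 2.0.1, HTSeq and hg19, while the paper's methods name ELAND and hg38. Positions in the table are those of GRCh37. From the counts, edgeR 4.0.16 in R 4.3.3 was run with filterByExpr, TMM and treatment alone over 15343 genes, and calls were made at an adjusted p under 0.05. The members and gene lists were chosen with earlier results of these data known. Named are all members, INO80, overlapping genes and, of the other pathway lists, called genes, up to 3 with the smallest blocked p and the most expressed, while cell type markers were named after their values were seen. Intervals use the standard error from the F statistic and are not adjusted. The replicate numbers were taken to pair the libraries, because correlations of deviations from group means were between 0.427 and 0.639 for equal numbers and at most 0.165 for others, across genes, which are not independent replicates. Deviations from a group mean cancel out within the group, so high values for equal numbers by themselves lower those for others. Ratios between genes were compared by exact two-sided permutation over the libraries (smallest possible p 0.1). Alternatives were the replicate block, DESeq2 1.42.0, other scalings, filters and call rules, and left-out libraries. On simulated data, edgeR with and without the block recovered 200 of 200 changed genes, each changed by the same fold. The simulated fold was far larger than any change measured in the members. The recovery thus does not show whether changes of their size would be found. The file also lists 1 pathway gene, SEPT4, under a symbol turned into a date, and it was matched by identifier. Raw reads, protein and caspase activity were not analysed here. PECAM1 was not analysed here, and some further genes of the lists and 1 ratio are not reported here.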

Additional observations from a re-analysis of the deposited data

How the results depend on the processing

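The count of caspase and apoptosome genes called stayed at 0 of 8 under every alternative run, including both libraries of a number left out with no block, which was added after seeing the data. The count over all genes was not stable. From 268 it went to 3798 with the replicate block, 1852 with DESeq2 and the block, 637 with DESeq2, 708 without a filter on low counts and 14 with a limit of 1 on the log2 fold change. It was 105, 25 and 18 without control siRNA replicate 1, 2 and 3, and 146, 47 and 23 without INO80 siRNA replicate 1, 2 and 3. With the pair of replicate 1, 2 or 3 left out, it was 3978, 2623 and 2251 with the block and 528, 2 and 2 with no block. The lower genes were 228 of 268 with treatment alone and 2050 of 3798 with the block. For the other pathway genes, 0 called became 9 with the replicate block, 5 with DESeq2 and the block, and 1 each with DESeq2, with total counts or without a filter. With the pair of replicate 1, 2 or 3 left out it was 14, 4 and 4 with the block and 2, 0 and 0 with no block, and it stayed at 0 with single libraries left out. The cause was not tested. With single libraries left out, log2 fold changes ran from -0.054 to 0.0040 for CASP2, from -0.012 to 0.13 for CASP8, from -0.10 to 0.052 for CASP9, from -0.095 to 0.042 for APAF1, from -0.058 to 0.079 for DIABLO and from -0.12 to 0.0040 for XIAP, so the direction of these 6 genes depended on single libraries, while CASP6 stayed lower and CYCS higher in all 19 alternatives each. Without the pair of replicate 3, CASP2 turned to 0.018 both with the block and with no block, and CASP9 to 0.016 with the block and 0.015 with no block. Without the pair of replicate 1, DIABLO turned to -0.061 in both fits. TNFSF10 ran from -0.67 to 0.036, CFLAR from -0.27 to 0.033 and BIRC3 from -0.017 to 0.39. The direction turned without control siRNA replicate 1 for TNFSF10 and CFLAR and without INO80 siRNA replicate 1 for BIRC3. These fits had no block and held replicate 1 in only 1 of the groups. Within all 3 replicate pairs TNFSF10 and CFLAR were lower and BIRC3 higher, where 52.7% of all tested genes kept 1 direction. The blocked fits that left out a pair kept these directions.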

Other observations

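Ratios of FPKM between members and partners were computed within each library and were chosen after the data were seen. The 5 ratios given here, XIAP over CASP9, DIABLO or BIRC2, APAF1 over CASP9 and CYCS over APAF1, had exact two-sided permutation p-values between 0.4 and 1, and between 0.875 and 1 after Benjamini-Hochberg adjustment over the 5, with n = 3 each. The smallest p that 3 libraries against 3 allow is 0.1.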
